A study of Homo sapiens with 4 samples.

Results

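The EGR and IER immediate early genes were described here through the open chromatin around them in A375 cells, an established human melanoma line. The genes were EGR1, EGR2, EGR3, EGR4, IER2, IER3, IER5 and IER5L. Members were the accessible regions overlapping the RefSeq span of 1 of these 8 genes extended by 25 kb on both sides, which gave 49 of the 125986 regions per the authors' deposited table. The EGR genes held 20 of them and the IER genes 29, and none was shared between genes. No measured value entered the rule, which is by position alone, but the genes themselves were chosen by a look at the fold changes, with the rise near IER5 already known. The calls below therefore describe these libraries and are not independent evidence.

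The assay was ATAC-seq, which uses the Tn5 transposase to cut and label open DNA. Cells grown in serum-containing medium were treated for 48 h with the medium-chain fatty acid octanoate at 1 mM, or with isopropanol, its vehicle. Each group had 2 libraries, 4 in all, of 1 cell line. Nothing in the labels says that the libraries came from separate cultures, so p-values measure only the spread between these libraries, which may be technical.

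Immediate early genes are transcribed within minutes of a stimulus without new protein synthesis. Growth factor signals reach many of them through the kinase ERK, which phosphorylates ETS-family partners of serum response factor (SRF) at a DNA element called the CArG box. EGR proteins are zinc finger transcription factors that bind GC-rich sites and are restrained by the corepressors NAB1 and NAB2. The IER proteins are a looser group: IER2, IER5 and IER5L are related in sequence, and IER3 is an unrelated regulator of cell survival. A375 cells carry an activating mutation of BRAF, a kinase upstream of ERK.

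RefSeq promoter sequences (GRCh38.p14) matched 6 of the 8 genes: EGR1, EGR2, EGR4, IER2, IER5 and IER5L. With 3 starts for EGR2 they gave 8 windows of 250 bases before to 50 after a start. The EGR1 and IER5 promoters are shown to 1 base before the start because the 2 strongest start regions lay over them, and 30 bases of the EGR2 promoter at its start 3 are shown for its CArG box. Capitals mark CArG boxes, searched on both strands.
EGR1, chr5:138465229-138465478, plus strand: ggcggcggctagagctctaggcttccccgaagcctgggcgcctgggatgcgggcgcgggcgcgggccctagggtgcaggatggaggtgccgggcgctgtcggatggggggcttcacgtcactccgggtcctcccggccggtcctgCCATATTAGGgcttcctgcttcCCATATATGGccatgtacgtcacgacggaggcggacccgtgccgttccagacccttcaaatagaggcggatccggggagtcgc
EGR2, chr10:62816418-62816447, minus strand: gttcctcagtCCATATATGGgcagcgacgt
IER5, chr1:181088450-181088699, plus strand: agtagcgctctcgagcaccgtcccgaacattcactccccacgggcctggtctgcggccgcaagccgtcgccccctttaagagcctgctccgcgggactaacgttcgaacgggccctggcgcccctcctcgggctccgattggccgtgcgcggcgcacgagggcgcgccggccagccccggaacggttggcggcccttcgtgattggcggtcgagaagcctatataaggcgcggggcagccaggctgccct

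The EGR1 window held 2 CArG boxes, beginning 105 and 83 bases before the start. At least 1 was found in 1.25% of the 22183 windows of protein-coding genes, and at least 2 in 8 windows (0.0361%). EGR2 had 1 box in the window of its start 3, beginning 71 bases before it. The same letters were not found in the windows of EGR4, IER2, IER5 or IER5L.

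The short cyclic AMP response element TGACG, searched on both strands, occurred 2 times in each of the EGR1, EGR4 and EGR2 start 3 windows and 1 time in that of IER2. It was in 27.9% of the protein-coding windows. The full element TGACGTCA (2.26% of windows), which holds the short one, the EGR sites GCGTGGGCG (1.04%) and GCGGGGGCG (6.48%), and the AP-1 site TGANTCA (6.15%) had no match in the 8 windows on either strand. The exact TATA box string TATAAA, searched on the gene strand alone, also had none (6.48% of windows). Variants of it, such as TATATAAG in the IER5 sequence shown above, were not searched for. The GC box GGGGCGGGG, searched on both strands and able to overlap an EGR site, was found in the first 2 EGR2 windows and in those of IER2 and IER5L, against 20.6% of windows. The exact ETS site CCGGAAG, on both strands, was found in the IER2 window alone, against 12.8%. Shorter or variant ETS sites were not searched for, so their presence in the other windows was not tested. GC content was 69.3% for EGR1 and 67.3% for IER5, and the protein-coding windows had a median of 62.3%.

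Values are the authors' and have no part for single libraries: a mean of normalized reads over the 4 libraries, and 1 log2 fold change of octanoate over vehicle with its standard error (SE). Levels given for vehicle and octanoate are those the mean and fold change imply together and carry no error of their own. A region is called tested where its mean was at least 63.8 normalized reads, the limit above which the authors adjusted p-values, and 12 of the 49 member regions were. Over all 11185 tested regions the authors' deposited table has a median log2 fold change of 0.19, so changes relative to it (centred) are given for the regions past the threshold. As a check of the label, 5 melanocytic markers had a start in the promoter table. Start regions were found at MITF and DCT, and none at MLANA, TYR or TYRP1. Of the markers of other cell types, only PTPRC and ALB had a start there, and 0 had a start region. SOX10, PMEL, CD3E, EPCAM and PECAM1 had no start entry and could not be read, so the check gives the label limited support.

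Regions past the threshold were found near EGR1 and IER5. By the authors' deposited table (DESeq2, Benjamini-Hochberg), 2 of the 12 tested member regions passed an adjusted p of 0.05, both higher after octanoate, and 1.02% of all tested regions passed in that direction. Neither lay at a transcription start. Over all tested regions in the authors' deposited table, 97 of 5487 away from the starts of protein-coding genes (1.77%) passed. At such starts 17 of 5698 (0.298%) did. At an unadjusted p under 0.05, 4 of the 12 were higher and 0 lower per the authors' deposited table. Over all tested regions 14.8% were higher and 0.107% lower by that rule. After centring, 0 of the 12 member regions had an adjusted p under 0.05, and 0.0536% of all tested regions did. At that setting the EGR1 region kept a log2 fold change of 0.75 (adjusted p 0.356), against 0.93 in the authors' deposited table. The IER5 region kept 0.71 (adjusted p 0.157), against 0.90 in the authors' deposited table.

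**Figure D1:**
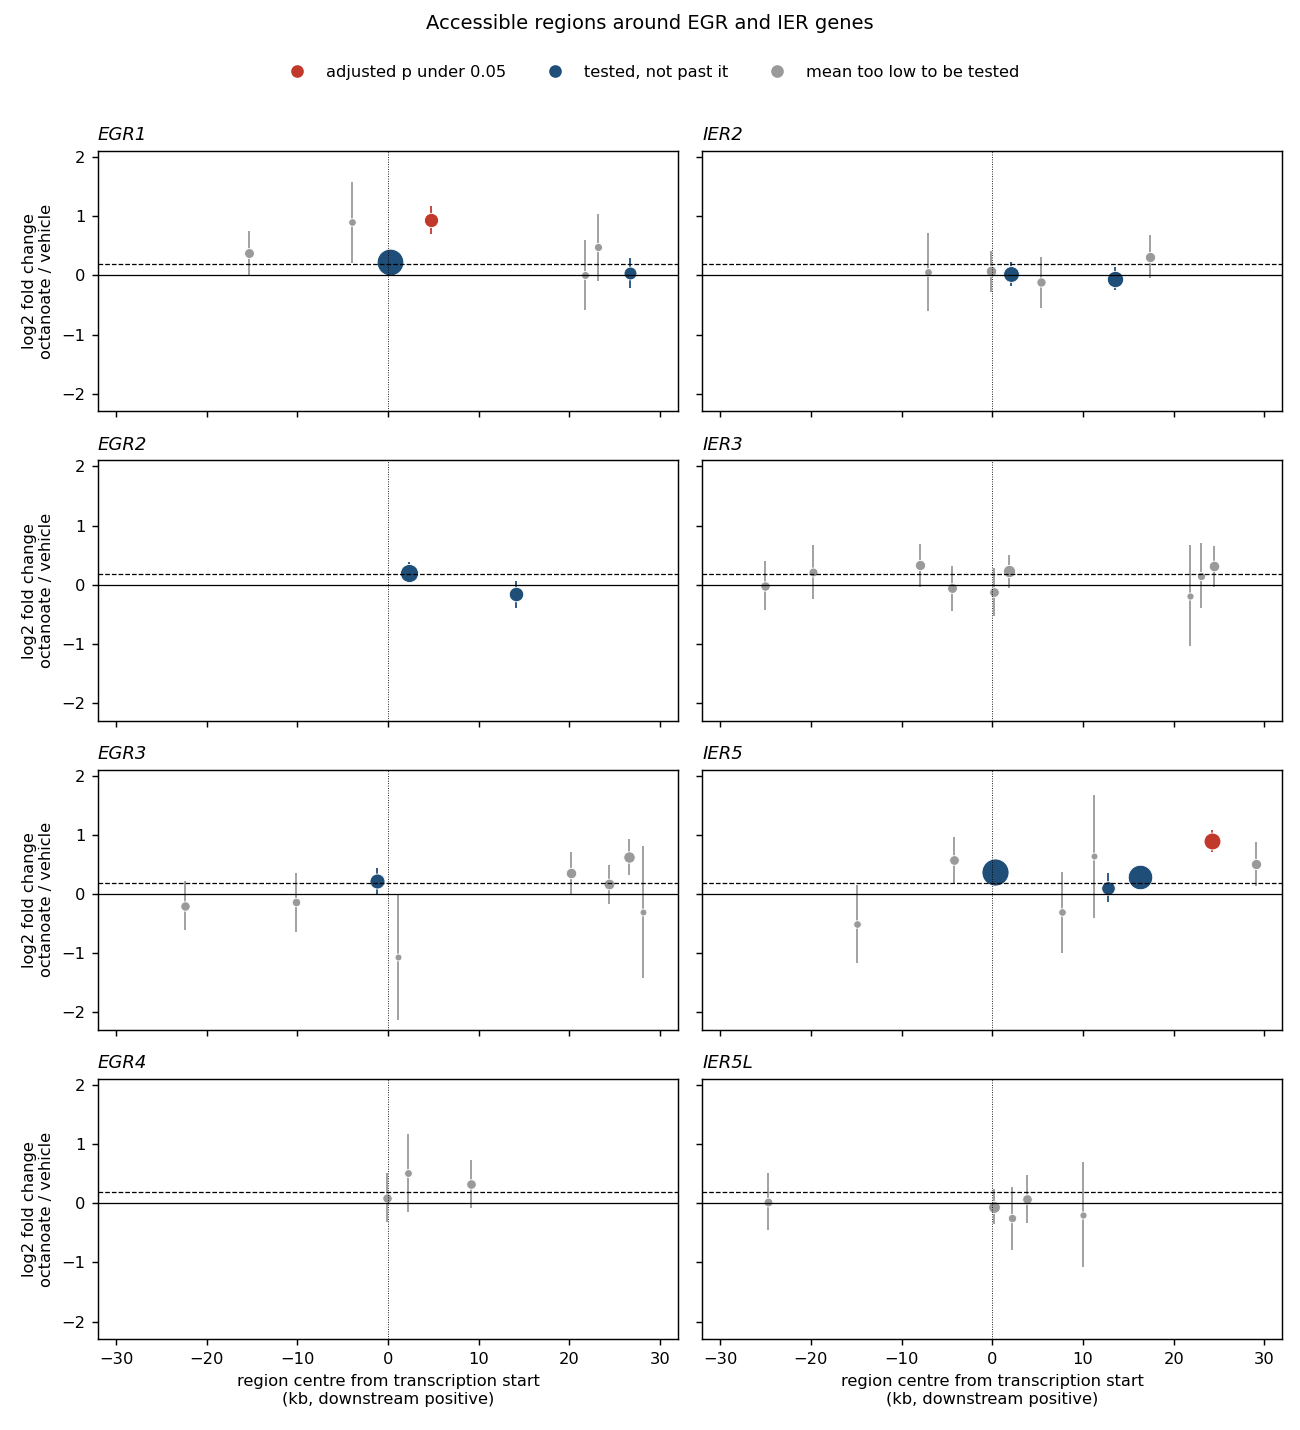
Log2 fold change of octanoate over vehicle (vertical axis) against the distance of each region's centre from the first transcription start in kb (horizontal axis, downstream positive), 1 panel per gene. Points are regions, larger with higher mean, bars are the authors' standard errors, and the dashed line is the tested median of 0.19. The red points lie at the 3' end of EGR1 and 24.3 kb downstream of the IER5 start, away from the large points at the starts of these genes.

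EGR1, the best studied zinc finger factor of its family, had its region past the threshold at the 3' end and not at the start. The gene lies on chromosome 5 from 138465479 to 138469303, and 2 of its 7 regions touch it. The start region ran from 138463788 to 138467526 over the whole promoter shown above and 2048 bases of the gene. It had a mean of 345.6 normalized reads per the authors' deposited table, which implies 318.6 in vehicle and 372.5 after octanoate. Its log2 fold change was 0.23 (SE 0.12, adjusted p 0.371) per the authors' deposited table, close to the median of all tested regions.

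The other region at the gene began 1.67 kb further on, at 138469197, overlapped the last 107 bases of EGR1 and ended beyond it at 138471202. In the authors' deposited table it rose by 0.93 (SE 0.23, adjusted p 0.0165, mean 83.2). The implied level went from 57.2 in vehicle to 109 normalized reads after octanoate, a 1.91-fold change, and the mean corresponds to 650.3 to 805 reads summed over all libraries. Among the 11185 tested regions it ranked 28 by fold change and 47 by p. Its fold change exceeded that of the start region by 0.71 on the log2 scale. The 3' region was singled out for its high fold change, so a difference in this direction was fixed by that choice. Both values come from the same libraries, and their difference was not tested.

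The remaining EGR1 regions had lower means. A tested region centred 26.7 kb downstream of the start had a log2 fold change of 0.04 (SE 0.26) per the authors' deposited table. It lay nearer to ETF1, a translation termination factor gene, than to EGR1. The other 4 had means of 9.72 to 29.97 in the authors' deposited table and were not tested. Their log2 fold changes were all above 0 per the authors' deposited table, from 0.01 (SE 0.59) to 0.90 (SE 0.68). The nearest other region past the threshold on chromosome 5 was 4538 kb from the 3' region. Over all of chromosome 5, 7 of 791 tested regions (0.885%) were past the threshold in the authors' deposited table.

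IER5, a nuclear protein known as a partner of phosphatase PP2A and of heat shock factor HSF1, had the most accessible surroundings of the 8 genes. Its 9 regions summed to a mean of 931.6 normalized reads in the authors' deposited table and covered 20.3% of its window. EGR1 came next with 559.6 and 15.4%. The gene lies on chromosome 1 from 181088700 to 181092900 with no other protein-coding gene in its window. The next one beyond the called region, the calcium channel gene CACNA1E, began 204 kb away.

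The IER5 start region (181086946 to 181091072) had a mean of 356.1 and a log2 fold change of 0.37 (SE 0.12, adjusted p 0.0952) per the authors' deposited table. The implied level was 310.5 in vehicle and 401.8 after octanoate. It missed the threshold, and among the members at a start it had the highest fold change.

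Downstream of IER5 lay 3 tested regions with unequal fold changes. The first, centred 12.7 kb from the start (181100515 to 181102351), had a mean of 74.7 and a log2 fold change of 0.10 (SE 0.25) per the authors' deposited table. The second, centred at 16.3 kb (181104034 to 181106042), had a mean of 287.7 and a log2 fold change of 0.29 (SE 0.13, adjusted p 0.253) per the authors' deposited table. Per length it was the strongest of the 49 member regions, at 143.2 normalized reads per kb, above 98.6% of the 12033 start regions of protein-coding genes with a start in the promoter table. It thus had more signal per kb than the IER5 start itself, at 86.3.

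The third, centred at 24.3 kb (181112352 to 181113621) and 19.5 kb from the gene's end, was the region past the threshold. In the authors' deposited table it had a mean of 126.3 and rose by 0.90 (SE 0.19, adjusted p 0.00139), ranking 16 by p among tested regions. The implied level went from 88.1 in vehicle to 164.5 normalized reads after octanoate, a 1.87-fold change resting on 987.3 to 1223 reads in all. Only 6.31 kb separated it from the region at 16.3 kb, and the 2 fold changes differed by 0.61. The difference from the start region was 0.53. The region at 24.3 kb was singled out for its known rise, so differences in this direction were fixed by that choice and were not tested.

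A weak neighbour on the far side, 3.87 kb on, had a log2 fold change of 0.50 (SE 0.37, mean 34.2, not tested) per the authors' deposited table. The next region past the threshold lay 27.8 kb beyond the one at 24.3 kb (181141404 to 181142900), outside the 25 kb limit, with a log2 fold change of 0.62 per the authors' deposited table. It was the 1 other such region within 1 Mb. Over all of chromosome 1, 28 of 1628 tested regions (1.72%) were past the threshold in the authors' deposited table. The 4 untested regions nearer to IER5 ran from -0.51 (SE 0.67) to 0.64 (SE 1.04) per the authors' deposited table, with means of 4.73 to 28.1.

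**Figure D2:**
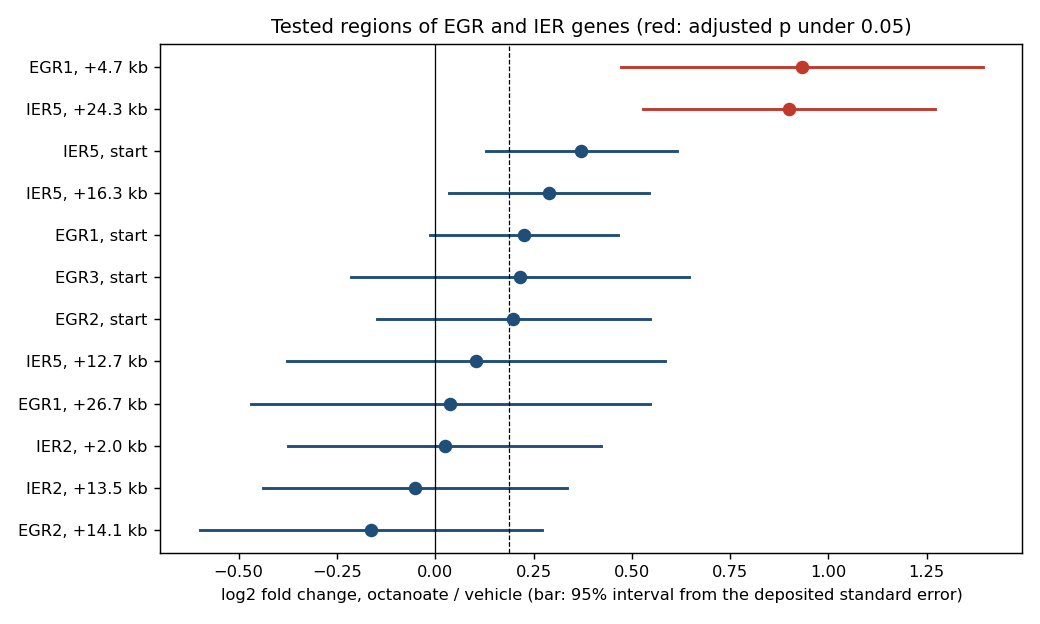
Log2 fold change of octanoate over vehicle (horizontal axis) for the 12 tested member regions, each named by its gene and the distance of its centre from the first start, with bars for the 95% interval from the authors' standard errors and a dashed line at the tested median of 0.19. The regions near EGR1 (0.93) and IER5 (0.90) lie apart from the other 10, which run from -0.16 to 0.37.

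EGR2, known for its role in Schwann cell myelination, had 2 regions, both tested. One (chromosome 10, 62814915 to 62818887) lay within the gene and covered its starts 2 and 3, including the CArG box shown above. It had a mean of 147.8 and a log2 fold change of 0.20 (SE 0.18) per the authors' deposited table, with implied levels of 137.6 in vehicle and 157.9 after octanoate. The other belonged to ADO, a thiol dioxygenase gene, and had -0.16 (SE 0.22, mean 87.3) per the authors' deposited table. This was the lowest fold change among the tested member regions, and its 95% interval from -0.60 to 0.27 includes 0.

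EGR3, a factor of muscle spindles and lymphocytes, lies on chromosome 8 from 22687659 to 22693480. Its strand and that of IER3 were taken from general knowledge, which places both on the minus strand. The start region (22693266 to 22696126) had a mean of 95.2 and a log2 fold change of 0.22 (SE 0.22) per the authors' deposited table. A second region 926 bases inside the start had the lowest fold change of all members, -1.06 per the authors' deposited table, on a mean of 4.55 with an SE of 1.07. That mean stands for 35.6 to 44.0 reads in all, and the 95% interval of -3.15 to 1.03 includes 0. Of the other 6 regions, 3 overlapped the neighbouring gene BIN3, a membrane-shaping protein. The highest of these had a log2 fold change of 0.63 (SE 0.31, unadjusted p 0.0392, not tested) per the authors' deposited table.

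EGR4, mostly known from neurons and germ cells, had the least signal: 3 untested regions with means of 11.1 to 26.9 per the authors' deposited table, together covering 3.58% of its window. Its start region (chromosome 2, 73293308 to 73293975) had a mean of 25.4 and a log2 fold change of 0.10 (SE 0.42) per the authors' deposited table. The region inside the gene (0.51, SE 0.66) and that at FBXO41 (0.33, SE 0.41) had higher values per the authors' deposited table, with errors as wide as the values.

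IER2, a nuclear protein of the early growth response, had no region past the threshold among its 6, of which 2 were tested. The start region (chromosome 19, 13149928 to 13150650) had a mean of 36.2 and a log2 fold change of 0.07 (SE 0.35) per the authors' deposited table. It also reaches the neighbouring gene STX10, whose span ends just before that of IER2 begins. A stronger region over the gene body (13151413 to 13153437, mean 107.9), which began 1002 bases from the start, just past the 1 kb limit, had 0.02 (SE 0.20) per the authors' deposited table. The strongest region of the window, 7.80 kb beyond the gene (13162712 to 13165116), had a mean of 117.3 and a log2 fold change of -0.05 (SE 0.20) per the authors' deposited table. The 95% intervals of this pair were -0.37 to 0.42 and -0.44 to 0.34. Those of the regions past the threshold were 0.47 to 1.39 (EGR1) and 0.53 to 1.27 (IER5). These 2 were singled out for their high values, and the difference from IER2 was not tested.

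IER3, the regulator of cell survival, lies on chromosome 6 from 30743199 to 30744547. None of its 9 regions reached the mean needed to be tested, and 3 of them overlapped TUBB, a tubulin gene. The start region (30743935 to 30744833) had a mean of 27.9 and a log2 fold change of -0.12 (SE 0.41) per the authors' deposited table. The strongest region (30742013 to 30743388, mean 57.4) overlapped the 3' end of IER3 and covered the starts of FLOT1, a membrane scaffold gene, and of the antisense gene IER3-AS1. It had 0.23 (SE 0.28) per the authors' deposited table. Its signal cannot be given to 1 of these genes. Over the 9 regions the log2 fold changes ran from -0.19 (SE 0.85) at TUBB to 0.33 (SE 0.36) at 7.61 kb before the start, per the authors' deposited table.

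IER5L, the close relative of IER5, had no region strong enough to be tested among its 5, with a start region (chromosome 9, 129177521 to 129178615) of mean 51.02 and a log2 fold change of -0.06 (SE 0.29) per the authors' deposited table. The other 4 ran from -0.26 (SE 0.54) to 0.07 (SE 0.41) per the authors' deposited table. Differences between IER5 and IER5L in their response were not tested.

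**Figure D3:**
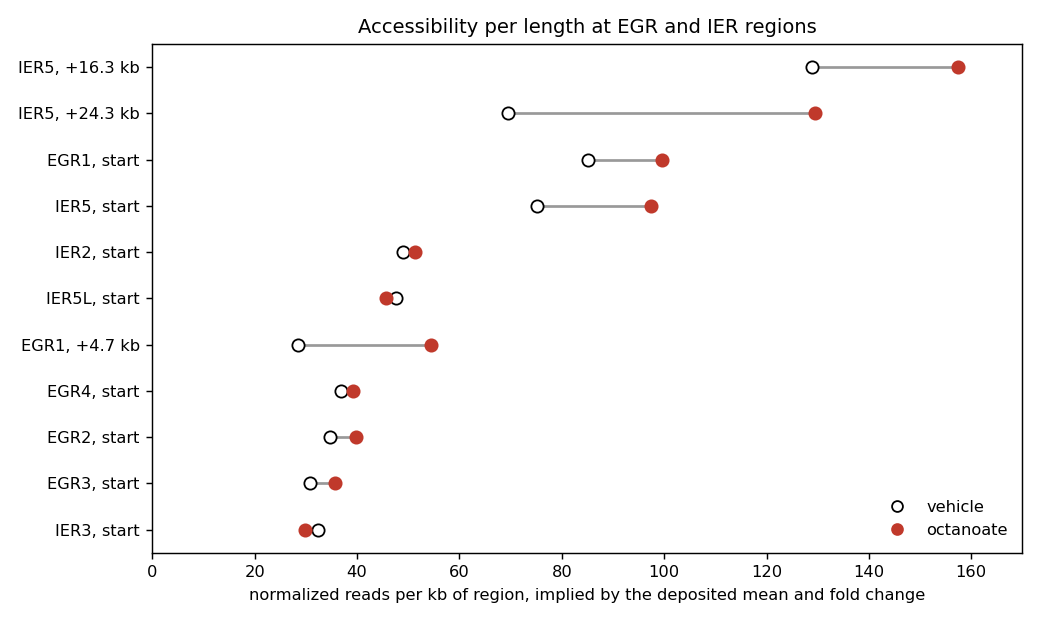
Normalized reads per kb of region (horizontal axis, from 0) implied for vehicle (open circles) and octanoate (filled circles) at the strongest start region of each gene, the 2 regions past the threshold and the region 16.3 kb downstream of the IER5 start. No error is drawn because single libraries have no values. The EGR1 3' region moves from 28.5 to 54.5 and the IER5 region at 24.3 kb from 69.4 to 129.6. The IER5 region at 16.3 kb moves from 128.9 to 157.5, and the start regions move less than these.

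Set side by side per length, the strongest start regions fell into an order with a wide step. EGR1 had 92.4 and IER5 86.3 normalized reads per kb, above 88.4% and 85.3% of the start regions of protein-coding genes. IER2 (50.1), IER5L (46.6), EGR4 (38.0), EGR2 (37.2), EGR3 (33.3) and IER3 (31.1) followed, between 22.1% and 50.6% of start regions. Whether neighbours in this order differ was not tested, since the mean has no spread between libraries. Width set several apart as well: the start regions of IER5 (4127 bases), EGR2 (3973) and EGR1 (3739) were wider than 98.8% or more of start regions, and the EGR4 region, at 668 bases, was wider than 21.5%.

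Implied levels were also summed over each window, where sums depend on how much was listed as open. Summed over its regions, IER5 went from 806.8 in vehicle to 1057 normalized reads after octanoate, a log2 ratio of 0.39. EGR1 went from 496.6 to 622.5, a log2 ratio of 0.33. Without the region past the threshold these ratios were 0.31 for IER5 and 0.22 for EGR1. The ratio over all nuclear regions was 0.21, and the other windows had 0.27 (EGR4), 0.21 (EGR3), 0.14 (IER3), 0.06 (EGR2), 0.02 (IER2) and -0.05 (IER5L). These sums have no error, so the order among the windows is a description.

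Over all 49 regions the median log2 fold change was 0.10 per the authors' deposited table, and that of all regions was 0.23. Of the 49, 33 were above 0 (67.3%), against 72.1% of all regions per the authors' deposited table. Tested regions alone gave a median of 0.21 for the 12 members and 0.19 over the table, with 10 of the 12 members (83.3%) and 85.7% of all tested regions above 0, per the authors' deposited table. Whether the members differ from the table was not tested. The EGR regions had a median of 0.21 and the IER regions 0.07 per the authors' deposited table, but over the 6 tested regions of each family the medians were 0.21 and 0.20. The 9 regions at a member's start had 0.10 and the other 40 had 0.13 per the authors' deposited table. Among tested regions the order was the opposite, with 0.22 for 4 at a start and 0.07 for the other 8, per the authors' deposited table. Over all regions the medians were 0.14 at the starts of protein-coding genes and 0.25 elsewhere per the authors' deposited table. Among all tested regions they were 0.16 and 0.23.

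**Figure D4:**
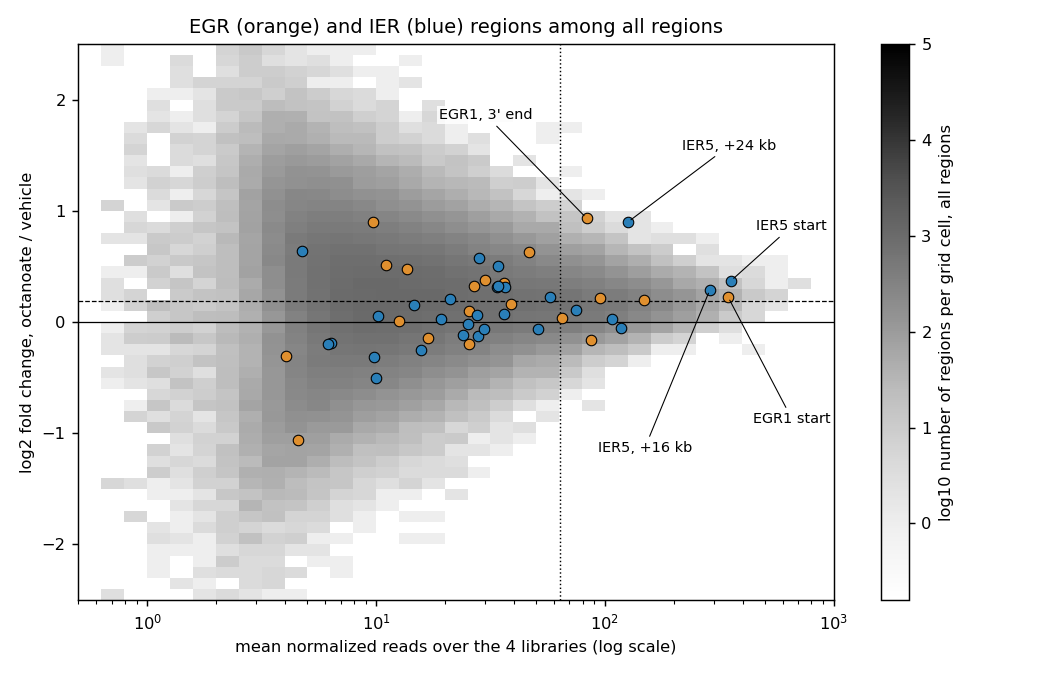
Log2 fold change of octanoate over vehicle (vertical axis) against mean normalized reads over the 4 libraries (horizontal axis, log scale) for member regions (points, EGR orange and IER blue), over the number of all regions in each grid cell (grey). The dotted line marks the lowest tested mean of 63.8 and the dashed line the tested median of 0.19; regions outside the axes are not drawn. Most points lie within the dense part of the cloud, and the EGR1 3' region and the IER5 region at 24.3 kb lie at its upper edge.

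Values on either side of the 25 kb limit are given without a test of their difference. The IER5 region 0.407 kb inside it had a log2 fold change of 0.50 (SE 0.37), and the nearest one outside, 1.32 kb beyond, had 0.38 (SE 0.29) per the authors' deposited table. At IER3 the region 0.479 kb inside had -0.02 (SE 0.41) and the one 0.31 kb outside had 0.20 (SE 0.29) per the authors' deposited table. Outside the EGR1 window the nearest region, 0.464 kb beyond, had 0.22 (SE 0.29) per the authors' deposited table. The widest gaps were at EGR4, with 0.33 (SE 0.41) inside and 0.84 (SE 0.94) outside, and at IER5L, with 0.03 (SE 0.48) inside and -0.73 (SE 1.03) outside, per the authors' deposited table. Both outside regions were weak, with means of 6.53 and 5.10 normalized reads.

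Related genes were read with the same window. The regulators and partners of EGR genes, such as SRF, the ELK factors, NAB1, NAB2 and kinases of the ERK pathway, were 20 genes with 124 regions, of which 24 were tested. Of these 24, 0 had an adjusted p under 0.05 in the authors' deposited table (DESeq2), 2 (8.33%) were higher at an unadjusted p under 0.05 and 0 lower. Over all tested regions these shares were 1.02%, 14.8% and 0.107%. The median over the 124 was 0.17 per the authors' deposited table.

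The list of 34 other immediate early genes, such as FOS, JUN, NR4A1 and DUSP1, had 209 regions, whose median was 0.26 per the authors' deposited table. Of its 51 tested regions 1 (1.96%) was past the threshold, and 15 (29.4%) were higher and 0 lower at an unadjusted p under 0.05, in the authors' deposited table. Against them stand the same 1.02%, 14.8% and 0.107% of all tested regions. The 1 region lay across ARC, a gene of synaptic plasticity (chromosome 8, 142614205 to 142615827, mean 116). It rose by 0.82 (SE 0.20, adjusted p 0.00971) per the authors' deposited table, and its log2 fold change after centring was 0.63 (adjusted p 0.356). All regions of the table had a median of 0.23, and whether either list differs from it was not tested.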

How the data were processed

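ATAC-seq of A375 cells was analysed from 1 deposited table of 125986 regions, which has 0 columns per library. Groups came from sample titles. Per the submitters' processing notes the tools were Trim Galore, cutadapt, FastQC, Bowtie2, Picard, MACS2, featureCounts, DESeq2 and bedtools 2.29.1, with build hg38; the steps each was used for, region merging and any Tn5 shift are not given in the sources used here. Per the file headers, the signal is the authors' mean normalized read count over 4 libraries, and the log2 fold change, its standard error, the Wald score and the p-values are the authors'. The deposited score equals the log2 fold change divided by its error. The deposited adjusted p-value equalled Benjamini-Hochberg adjustment over 11185 regions, those whose mean reached 63.8 normalized reads; the other 114801, listed at 1, were treated as not tested.

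Deposited names count starts from 0, so 1 was added. Gene spans and promoters came from RefSeq (GRCh38.p14). A start region lay within 1 kb of a start; 15843 of 20056 protein-coding genes had a start entry. Multiplied by 4, all 8186 means under 4 (100%) were sums of whole reads worth 0.413, 0.431, 0.434 or 0.512 normalized reads, equal after rounding to 1e-06; of the same values shifted by 0.000777, 0% were. Read ranges divide by the largest and smallest of these; no value was assigned to a library. Centred p-values used the normal distribution and the deposited errors. That calculation was tested on simulated data. Python 3.11.15, pandas 2.3.3, numpy 2.4.6, scipy 1.17.1 and matplotlib 3.10.9 were used.

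Named regions were each gene's strongest start region, its strongest region, its highest and lowest fold changes (among tested regions where it had any) and those with an adjusted p under 0.05. Members, lists and tests were chosen with earlier results of these data known. Regions named outside that rule, such as the IER5 region at 16.3 kb, were chosen after their values were seen. No likeness between genes was computed, since the table holds 1 contrast. A further gene list is not reported here.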

Additional observations from a re-analysis of the deposited data

How the results depend on the processing

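The count of 2 member regions with an adjusted p under 0.05 became 3 at a limit of 0.1 (with the IER5 start) and 1 at 0.01. It was also 1 when p was adjusted over all regions. At both of these settings the IER5 region at 24.3 kb stayed and the EGR1 region was lost. The count was 1 with a window of 10 kb, which leaves out the IER5 region, and 3 with 50 kb. It was 0 after centring on the tested median and 0 after centring on the median of all regions, where the EGR1 region kept 0.75 and 0.70 and the IER5 region 0.71 and 0.67 on the log2 scale. Centring on the mitochondrial region, added after seeing the data, left 1, the IER5 region (adjusted p 0.0243; EGR1, 0.0955). Counting only regions nearest to the gene kept 2.

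The members' median of 0.10 turned to -0.082 and -0.12 after centring on the tested and on all regions, because the subtracted medians exceed it. It ran from 0.067 without IER5 to 0.18 without IER5L, and was 0.21 in tested regions. Start minus other regions, -0.031, was 0.034 with 10 kb and -0.059 with 50 kb; the cause was not tested.

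Tested values turned negative where the constant exceeded them. On the tested median these were EGR1 at 26.7 kb (-0.15), IER2 at 2.0 kb (-0.16) and IER5 at 12.7 kb (-0.082). On the median of all regions they were these (-0.19, -0.21 and -0.12) and the starts of EGR1 (-0.0036), EGR2 (-0.030) and EGR3 (-0.013). On the mitochondrial region they were EGR1 at 26.7 kb (-0.063) and IER2 at 2.0 kb (-0.078).

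No paired analysis was possible because single libraries have no values in the file. Leaving out a replicate and edgeR need such values too and were not run.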
